A study of Homo sapiens with 4 samples.

Results

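The genes described here encode the signal recognition particle (SRP) and its receptor: the 7SL RNA genes RN7SL1 and RN7SL2, the protein subunit genes SRP9, SRP14, SRP19, SRP54, SRP68 and SRP72, and the receptor subunit genes SRPRA and SRPRB. They were matched by symbol, no measured value entering the match, though the set was proposed with earlier results of these data known, and all 10 were found among the 60719 genes of the count tables. SRP binds the signal sequence of a secretory or membrane protein as it leaves the ribosome, and brings the translating ribosome to the SRP receptor on the endoplasmic reticulum, where the SEC61 channel takes over the growing chain. The 7SL RNA, made by RNA polymerase III, is the scaffold of the particle and an abundant cytoplasmic RNA of human cells. Alu repeats descend from it, and the human genome holds many truncated or mutated 7SL copies.

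The libraries came from an RNA immunoprecipitation. Cells of SK-N-AS, a human neuroblastoma cell line written SKNAS in the labels, were transfected with Lipofectamine 2000 and used 24 hours later. The plasmid encoded V5-tagged KIF5A, the heavy chain of a neuronal kinesin motor, in the wild-type form (WT) or in the mutant form that the labels name d27, and the title of the series concerns KIF5A mutations linked to amyotrophic lateral sclerosis. Tagged protein was collected on anti-V5 magnetic beads and the RNA in the eluate was sequenced, with 2 libraries per construct. All 4 libraries therefore carry a transfected KIF5A in addition to whatever the cells make themselves, and no input, mock or untransfected library was used here. The values compare d27 with WT precipitates and are not enrichments over background. The labels do not say that replicates came from separate cultures, so p-values measure only how these libraries vary, which may be technical variation. A difference in the amount of a transcript in the cells and a difference in its recovery on the beads cannot be told apart in these data.

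Gene counts totalled 8142869 to 18335151 per library. KIF5A itself had 735168 and 1598509 counts in the WT libraries and 1989252 and 1175335 in the d27 libraries. As CPM (counts scaled to a common library total) these were 83658 and 166138 in WT and 108245 and 109266 in d27, with WT replicate 2 the highest. The log2 fold change of KIF5A, -0.20 (SE 0.49), did not pass the test (adjusted p = 0.821, edgeR). It does not check the mutant label, since both constructs are KIF5A. Its direction turned to 0.40 when WT replicate 2 was left out. Of 8 mesenchymal neuroblastoma markers all were detected, with summed levels of 2946 to 3692 CPM. VIM alone had 1809 and 1861 CPM of this in WT and 1186 and 1340 in d27. The 8 adrenergic markers summed to 962 to 1302 CPM. Of these, 7 passed the filter on low counts, while the enzyme gene TH had 5, 0, 0 and 1 counts. The sums do not assign a cell state, which was not tested. Among 6 markers of other cell types, EPCAM and GFAP were at 0 in every library and ALB had 1 count in all. PTPRC, KRT18 and PECAM1 were present, with both d27 libraries below both WT libraries. Of these 3, PTPRC and KRT18 were called lower in d27, beside 3.7% of all genes tested. The 6 together summed to 322 to 404 CPM in WT and 151 to 175 in d27, and their part in the results was not tested.

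The 7SL genes are nearly identical, and reads that align to several places are not counted. RN7SL1 lies on chromosome 14 of GRCh38 from 49586580 to 49586878 (plus strand) and RN7SL2 from 49862550 to 49862849 (minus strand), each as a gene of a single exon in GENCODE release 29. RN7SL3, another counted copy outside the 10 genes, lies from 49853616 to 49853914 (minus strand). RN7SL2 differed from RN7SL1 by 4 substitutions and was 98.7% identical over the 299 aligned bases. Its longest stretch without a difference was 205 bases, which exceeds the lower insert size of 150 bases in the labels. RN7SL3 differed by 7 substitutions, was 97.7% identical and had 123 bases as its longest stretch without a difference. Of all windows of 150 bases along RN7SL1, 99 of 150 occurred letter for letter in the transcripts of another annotated gene, leaving aside a second entry on the same bases. For RN7SL2 the number was 99 of 151 and for RN7SL3 it was 0 of 150. With windows of 50 bases these shares were 84.4% for RN7SL1, 86.5% for RN7SL2 and 35.2% for RN7SL3. Only annotated transcripts were searched, not the rest of the genome.

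RN7SL1 (ENSG00000276168, 299 bases) carried every count of the 2 SRP RNA genes and was lower in the d27 precipitates. It had 22494 and 39592 counts in the WT libraries, replicates 1 and 2, and 15896 and 13234 in the d27 libraries in the same order. Scaled by edgeR's TMM factors, which adjust each library's total for its composition, these were 2559.7 and 4115 CPM in WT and 865 and 1230.3 CPM in d27. Both d27 libraries lay below both WT libraries, and WT replicate 2 stood highest. RN7SL1 fell by 1.67 on the log2 scale (SE 0.36, adjusted p = 0.0293), from 3337 ± 1099.7 to 1048 ± 258 TMM CPM (SD, n = 2 per group), which is 3.19-fold lower in d27. The test was edgeR's quasi-likelihood test on the 14909 genes that passed a filter on low counts, with Benjamini-Hochberg adjustment over all of them and a threshold of 0.05. It called 11.7% of those genes in either direction, 8.0% higher in d27 and 3.7% lower in d27. The call for RN7SL1 was lost when d27 replicate 1 was left out (log2 fold change -1.42, adjusted p = 0.182) and with an offset for exon length and GC content (log2 fold change -1.17, adjusted p = 0.0593), and the adjusted p ranged from 3.58e-06 to 0.182 over the 12 alternatives.

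A share of all gene counts scales each library by its own total, without TMM. By this measure RN7SL1 and RN7SL2 together held 0.276% (exact 95% interval 0.273 to 0.280) and 0.366% (0.363 to 0.370) in the WT libraries. In the d27 libraries the shares were 0.0867% (0.0854 to 0.0881) and 0.126% (0.124 to 0.128). The 2 groups did not overlap, and their means were 0.321% ± 0.0636 and 0.106% ± 0.0280 (SD, n = 2 per group), 3.02-fold apart. Taken over all entries, with reads set aside or in no gene included, the means were 0.169% in WT and 0.0720% in d27, 2.35-fold apart. A two-sided exact permutation test gave p = 0.33, the smallest value that 2 against 2 libraries allow. These intervals describe counting error alone and take each read as independent. Molecular identifiers, which would tell duplicate reads apart, were not used, so the intervals may be too narrow.

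Reads that aligned to several places are set aside by the counting program, and their share of all entries was 23.7% and 22.8% in the WT libraries and 9.10% and 17.1% in the d27 libraries. Reads in no annotated gene were 20.6% and 21.8% of entries in WT and 13.5% and 16.7% in d27. Both shares were lower in d27, as RN7SL1 was, and their part in the RN7SL1 difference was not tested. RN7SL1 lies within an intron of RPS29, a ribosomal protein gene on the opposite strand, which had 258 and 333 counts in WT and 256 and 185 in d27. RPS29 had a log2 fold change of -1.04 (SE 0.29), also negative, that did not pass the test (adjusted p = 0.0543, edgeR, with 0.0127 to 0.378 over the alternatives). GENCODE release 29 places a second entry, ENSG00000283029, on the same bases and strand as RN7SL1. That entry is not among the 60719 genes of the count tables, so it has no counts here.

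RN7SL2 (ENSG00000274012, 300 bases) had 0 counts in all 4 libraries and was not tested. Among counted reads, 0 leaves a level of up to 3 counts possible, which on library totals without TMM is 0.368 and 0.277 CPM in WT and 0.164 and 0.286 CPM in d27. The gene lies inside the longer non-coding gene ENSG00000282885 on the same strand, which had 1, 0, 7 and 6 counts. Counting sets aside reads that fall in 2 overlapping genes on a strand as well as reads that align to several places, so the 0 does not show that the RNA was absent from the precipitates. RN7SK, RMRP and RPPH1, other abundant RNA polymerase III transcripts that a second annotated gene spans on the same strand, were also at 0 in every library. Whether exons overlap was not examined for those genes. Which of the counting steps gave the 0 was not tested.

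Among the 678 other loci whose symbol begins with RN7SL, 267 had at least 1 count and 17 passed the filter. None of the 17 was called higher in d27 and 1 was called lower by edgeR, beside 8.0% and 3.7% of all genes tested. At an unadjusted p under 0.05 the count was 2 in each direction, and DESeq2 called 1 in each direction. Over all genes tested by edgeR, 17.0% were higher and 13.6% lower at that unadjusted p. DESeq2 called 14.1% higher and 9.13% lower of the 12173 genes to which it gave an adjusted p. Their median log2 fold change was -0.80, with 14 negative and 3 positive, beside a median of -0.0004 over all genes tested. RN7SL4P, a pseudogene copy on chromosome 3 (15738515 to 15738809) within an intron of ANKRD28 (opposite strand), had 103 and 134 TMM CPM in WT and 26.8 and 41.9 in d27. Both d27 libraries were below both WT libraries, and it fell by 1.79 on the log2 scale (SE 0.30, adjusted p = 0.0151, edgeR). It shared an identical stretch of 133 bases with RN7SL1, and the ratio of RN7SL1 to RN7SL4P counts was 24.8 and 30.7 in WT and 32.2 and 29.3 in d27. Of the RN7SL4P windows, 58.1% of those of 50 bases and 29.5% of those of 150 bases occurred in another gene's transcripts.

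RN7SL3 had 269 and 303 TMM CPM in the WT libraries, and 68.0 and 262 in d27 replicates 1 and 2. The first d27 library was low while the second lay close to WT, and the log2 fold change of -0.80 (SE 0.53) did not pass the test (adjusted p = 0.344, edgeR). Without d27 replicate 2 the value was -2.04 (adjusted p = 0.000228), and the adjusted p ranged from 0.000228 to 0.939 over the alternatives. RN7SL674P, a pseudogene copy on chromosome 2 (11584773 to 11585047) within an intron of GREB1 (same strand), stood at 8.08, 5.61, 14.3 and 171 TMM CPM in the same order of libraries. Its 1836 counts in d27 replicate 2 stood apart from 263 in d27 replicate 1, and its log2 fold change of 3.75 (SE 1.05, adjusted p = 0.0628, edgeR) was 1.09 without d27 replicate 2 (adjusted p of 5.25e-11 to 0.669 over the alternatives). RN7SL1 made up 85.2%, 88.8% and 86.2% of all RN7SL counts in the WT libraries and d27 replicate 1, but 69.5% in d27 replicate 2.

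**Figure D1:**
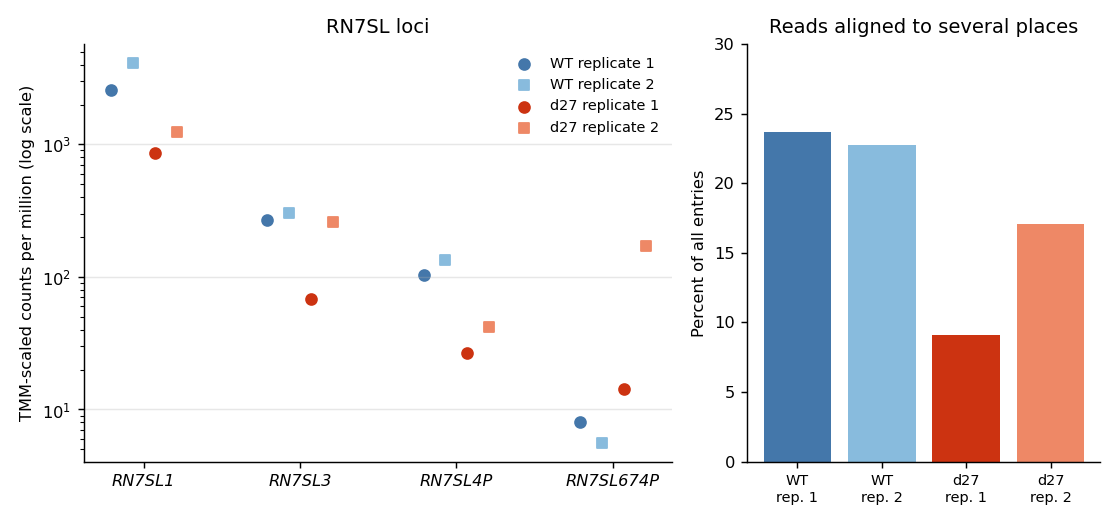
Left, TMM-scaled CPM (log axis) of RN7SL1 and the 3 other RN7SL loci with the highest mean count, with 1 point per library. Right, reads aligned to several places as a percent of all entries of each count table, which stood at 23.7 and 22.8 in WT and at 9.10 and 17.1 in d27.

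The protein and receptor genes had values in both directions. Of the 6 protein and 2 receptor genes, all of which were tested, 3 rose in d27 (SRP9, SRP19 and SRPRA), none was called lower and 5 did not pass, beside 8.0% higher and 3.7% lower over all genes tested. At an unadjusted p under 0.05 the count was 4 higher and 0 lower, and DESeq2 called 3 higher and 0 lower. Over all genes these shares were 17.0% and 13.6% unadjusted, and 14.1% and 9.13% by DESeq2. Both d27 libraries were above both WT libraries for 5 of the 8 genes and below them for 2, beside 31.4% and 29.8% of all genes tested. The median log2 fold change of the 8 was 0.57. With RN7SL1, 9 of the 10 genes were tested, of which 3 were higher and 1 was lower.

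**Figure D2:**
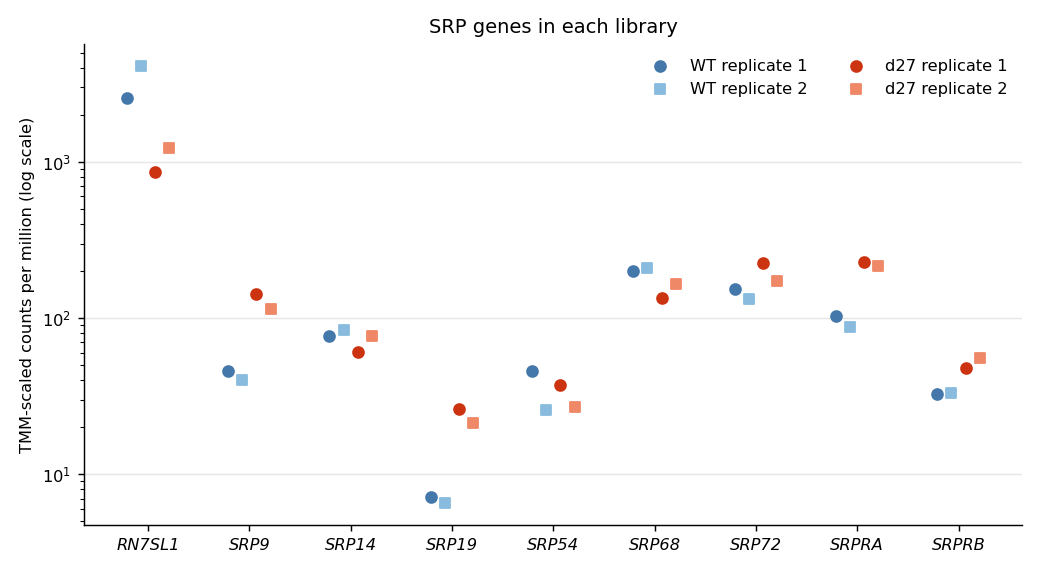
TMM-scaled CPM (log axis) of the 9 SRP genes with counts, with 1 point per library. RN7SL1, SRP14 and SRP68 are lower in both d27 libraries, SRP9, SRP19, SRP72, SRPRA and SRPRB are higher in both, and the SRP54 points overlap.

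SRP9 and SRP14 form the heterodimer that binds the Alu domain of 7SL RNA, the end of the particle that delays elongation until the ribosome is docked. SRP9 (chromosome 1, 225777813 to 225790466, plus strand) had 46.0 and 40.2 TMM CPM in WT and 142 and 114 in d27. Both d27 values lay far above both WT values. SRP9 rose by 1.57 on the log2 scale (SE 0.25, adjusted p = 0.0132, edgeR), from 43.1 ± 4.07 to 128 ± 19.8 TMM CPM (SD, n = 2 per group), 2.98-fold. The call held in all 12 alternatives, with log2 fold changes of 1.22 to 1.75. A pseudogene copy, SRP9P1, had 30 counts over all 4 libraries, and of the 50-base windows of SRP9 transcripts 10.5% occurred in another gene's transcripts.

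SRP14 (chromosome 15, 40035739 to 40039188, minus strand) had 77.0 and 84.5 TMM CPM in WT and 61.0 and 76.6 in d27. The d27 values lay just below the WT values, with d27 replicate 2 within 1 CPM of WT replicate 1. Its log2 fold change of -0.23 (SE 0.24) did not pass the test (adjusted p = 0.557, edgeR). The 2 mRNAs of this heterodimer thus had values of opposite sign, that of SRP14 lying within its SE of 0. The ratio of SRP9 to SRP14 counts within a library was 0.597 and 0.476 in WT and 2.33 and 1.49 in d27, so that SRP14 had more counts in WT and SRP9 had more in d27. This ratio was chosen after the values were seen and is given without a test.

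SRP19 binds the S domain of 7SL RNA and prepares it for SRP54. SRP19 (chromosome 5, 112861188 to 112898371, plus strand) had 63 counts in each WT library and 484 and 230 in d27. On the TMM scale these were 7.17 and 6.55 CPM in WT and 26.3 and 21.4 CPM in d27, without overlap. SRP19 rose by 1.80 on the log2 scale (SE 0.32, adjusted p = 0.0178, edgeR), from 6.86 ± 0.44 to 23.9 ± 3.50 TMM CPM (SD, n = 2 per group). This 3.48-fold change was the largest of the 8 protein genes and also rested on the fewest counts. Without d27 replicate 1 it was no longer called (log2 fold change 1.66, adjusted p = 0.0857), and its adjusted p ranged from 9.32e-05 to 0.0857 over the alternatives.

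Annotated SRP19 isoforms run into neighbouring genes, which limits what its count means. The gene shares 368 exon bases with REEP5 on the opposite strand, which had 59.5 and 48.8 TMM CPM in WT and 117 and 84.4 in d27. REEP5 shapes tubules of the endoplasmic reticulum, and its log2 fold change of 0.89 (SE 0.27) did not pass the test (adjusted p = 0.0665, edgeR, with 0.0121 to 0.412 over the alternatives). The strand setting of the counting is not given in the sources used here, so reads from the shared bases may not be told apart. SRP19 also spans the pseudogene ZRSR2P1, which was at 0 in every library, and 19.1% of its 150-base windows occurred in transcripts of another gene.

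SRP54 is the GTPase that binds the signal sequence and, with SRPRA, controls docking and release. SRP54 (chromosome 14, 34981957 to 35029567, plus strand) had 45.7 and 25.8 TMM CPM in WT, replicate 1 being the higher, and 37.3 and 27.1 in d27. The groups overlapped, and the 2 WT libraries were farther apart than the group means. Its log2 fold change of -0.15 (SE 0.35) did not pass the test (adjusted p = 0.806, edgeR), and the value turned to 0.37 without WT replicate 1 and to 0.09 without d27 replicate 2. Of the 6 protein genes it was the only one whose 50-base windows (0 of 2278) occurred in no other gene's transcripts.

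SRP68 and SRP72 form the other heterodimer of the particle, also on the S domain. SRP68 (chromosome 17, 76038775 to 76072653, minus strand) had 201 and 208 TMM CPM in WT and 134 and 164 in d27, both d27 values being lower. Its log2 fold change of -0.46 (SE 0.24) did not pass the test (adjusted p = 0.227, edgeR). SRP72 (chromosome 4, 56467336 to 56503681, plus strand) had 152 and 132 TMM CPM in WT and 225 and 173 in d27, both d27 values being higher. Its log2 fold change of 0.49 (SE 0.25) did not pass either (adjusted p = 0.227, edgeR). The values of these partners were of opposite sign, though neither passed. The count ratio of SRP72 to SRP68, chosen after the values were seen, was 0.757 and 0.636 in WT and 1.69 and 1.05 in d27.

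The SRP receptor holds SRP at the endoplasmic reticulum: SRPRA is the peripheral GTPase that pairs with SRP54, and SRPRB is the membrane-spanning subunit that anchors it. SRPRA (chromosome 11, 126262919 to 126269144, minus strand) had 103 and 87.6 TMM CPM in WT and 229.7 and 214 in d27. The libraries of each construct lay close together and far from those of the other. SRPRA rose by 1.22 on the log2 scale (SE 0.23, adjusted p = 0.0213, edgeR), from 95.4 ± 10.9 to 222 ± 11.0 TMM CPM (SD, n = 2 per group), 2.33-fold. The call held in all 12 alternatives, with log2 fold changes of 0.96 to 1.39 and adjusted p-values up to 0.0492. Its exons share 90 bases with FOXRED1 and 68 with FAM118B on the opposite strand, whose log2 fold changes of -0.72 (SE 0.31) and 0.56 (SE 0.34) did not pass the test.

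SRPRB (chromosome 3, 133784033 to 133825772, plus strand) had 32.4 and 33.2 TMM CPM in WT and 48.3 and 55.6 in d27. Both d27 libraries were above both WT libraries. The means were 32.8 ± 0.51 and 51.9 ± 5.18 TMM CPM (SD, n = 2 per group), and the log2 fold change of 0.66 (SE 0.25) did not pass the test (adjusted p = 0.123, edgeR). SRPRB shares 381 exon bases with RAB6B on the opposite strand, which had 28, 40, 93 and 74 counts, and 112 bases with TF on its own strand, which had 0, 0, 0 and 1. The count ratio of SRPRA to SRPRB was 3.18 and 2.64 in WT and 4.76 and 3.85 in d27, again described after the values were seen.

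**Figure D3:**
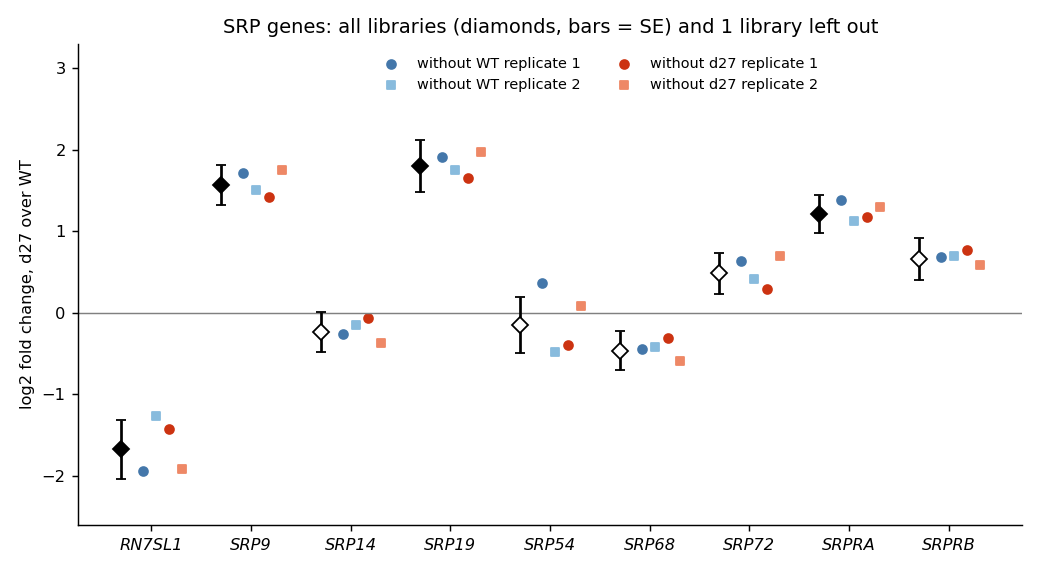
Log2 fold change of d27 over WT for the 9 SRP genes tested, with all libraries (diamonds, filled where the adjusted p is under 0.05, bars are the standard error) and with each library left out in turn (coloured points). SRP54 crosses 0 when WT replicate 1 or d27 replicate 2 is left out, and the other 8 genes stay on their side of 0.

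The balance between the RNA and the protein transcripts of the particle was read within each library. The log2 ratio of 7SL counts to the summed counts of the 6 protein mRNAs was 2.27 and 3.05 in WT and 0.47 and 1.09 in d27. The means were 2.66 ± 0.55 and 0.78 ± 0.44 (SD, n = 2 per group), a difference of -1.88 on the log2 scale, and every d27 library was below every WT library. A two-sided exact permutation test gave p = 0.33, again the smallest value possible. The ratio does not depend on scaling between libraries, though it does depend on the 7SL reads that were set aside.

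For the make-up of the protein mRNAs, counts were divided by annotated exon length and taken as percent of their sum within a library. SRP9 made up 20.9% and 19.3% in WT and 46.4% and 40.9% in d27. SRP14 made up 30.1% and 35.0% in WT and 17.2% and 23.6% in d27, and SRP68 made up 20.7% and 22.6% in WT and 9.85% and 13.3% in d27. Per base of annotated exon, SRP14 was thus the leading subunit mRNA in the WT precipitates and SRP9 in the d27 precipitates. This lead depends on the exon lengths used, which pool all isoforms (7641 bases for SRP68 and 2005 for SRP14). In counts without a length, SRP68 had 1770 and 2004 in WT, against 677 and 813 for SRP14. In d27, SRP72 had 4144 and 1862 counts, against 2614 and 1229 for SRP9. SRP72 stayed between 16.7% and 19.8% in all libraries, SRP54 between 4.29% and 9.19%, and SRP19 between 0.517% and 1.41%. These shares sum to a fixed total, so a larger share of SRP9 lowers the others.

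**Figure D4:**
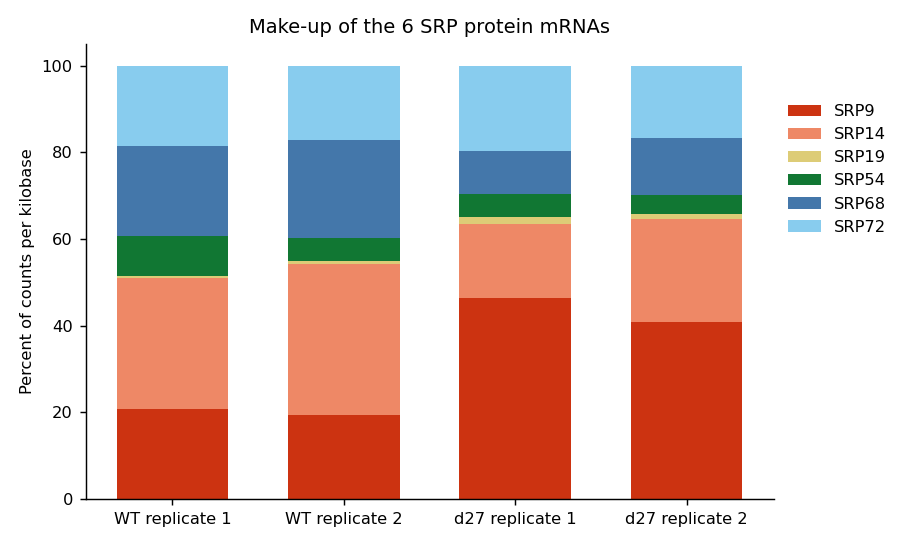
Counts per kilobase of annotated exon of the 6 SRP protein mRNAs, as percent of their sum, in a bar per library. SRP9 widens from 20.9 and 19.3% in WT to 46.4 and 40.9% in d27, while SRP14 and SRP68 narrow.

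The order of levels across genes was read per length, as TPM, the counts per kilobase of annotated exon scaled to the same sum in each library. Over the 4 libraries RN7SL1 averaged 27450.2 TPM (13263 to 50382). SRP9 followed at 203 TPM (85.2 to 377), SRPRA at 154 (77.0 to 253), SRP14 at 144 (136 to 154), SRP72 at 106 (75.4 to 161) and SRP68 at 89.1 (80.1 to 99.8). SRPRB averaged 40.2 TPM (27.4 to 52.9), SRP54 34.0 (24.2 to 43.8) and SRP19 6.01 (2.28 to 11.5), and RN7SL2 was at 0. The ranges separated RN7SL1 from SRP9, SRP68 from SRPRB, SRP54 from SRP19, and SRP19 from RN7SL2. The other neighbours in this order overlapped. The order pools both constructs and differed between them below RN7SL1. In WT, SRP14 stood highest (136 and 154 TPM), with SRP68 (93.1 and 99.8) and SRP9 (93.9 and 85.2) overlapping next and SRPRA at 87.4 and 77.0. In d27, SRP9 stood highest (377 and 256 TPM), followed without overlap by SRPRA (253 and 199), with SRP14 at 139 and 148 and SRP68 at 80.1 and 83.2. Exon length is the union of all annotated isoforms, which lowers the TPM of any gene whose transcripts are shorter than that union. It was 7641 bases for SRP68, 6426 for SRP72 and 2005 for SRP14, and the order under another length was not computed. The 10517 bases of SRP19 include isoforms that run into other genes and lower its TPM.

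Among 9635 tested genes outside the RN7SL family with a mean count of at least 100, the 3 whose log2 TMM CPM, centred on each gene's mean, lay nearest to RN7SL1 over the 4 libraries were NCAPD2, LRP1B and SYNE2. Their root mean square differences from RN7SL1 were 0.0435, 0.0480 and 0.0526 on the log2 scale. NCAPD2 encodes a condensin subunit, LRP1B a large endocytic receptor and SYNE2 a giant nuclear envelope protein. Their log2 fold changes were -1.62, -1.77 and -1.68. The choice by likeness to RN7SL1 in these 4 libraries fixes that direction, so the values are a description, with no test.

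The neighbouring steps of the pathway were read from lists of genes. Over the 6 lists, 89 of 96 genes were tested, of which 8 (8.99%) rose and 3 (3.37%) fell, close to the 8.0% and 3.7% of all genes. The median log2 fold change was 0.15. Leaving out WT replicate 1 gave 21 higher and 8 lower, leaving out WT replicate 2 gave 3 and 1, and leaving out d27 replicate 1 gave 4 and 0. With library totals in place of TMM, TRAM1, SSR2, SEC61A2, BTF3L4, POLR3F, POLR3A and GTF3C2 kept their direction but were not called (adjusted p of 0.0527 to 0.0653). At an unadjusted p under 0.05, 20 of the 89 were higher and 12 lower, beside 17.0% and 13.6% of all genes. DESeq2 called 14 higher and 6 lower, beside 14.1% and 9.13% of the genes to which it gave an adjusted p.

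The translocon list holds the SEC61 channel and the proteins that sit with it. Of its 16 genes 4 rose (25.0%), none fell and 12 did not pass, with a median log2 fold change of 0.39. Over all genes 8.0% rose and 3.7% fell. At an unadjusted p under 0.05 the count was 6 higher and 0 lower, beside 17.0% and 13.6% of all genes. DESeq2 called 6 and 0, beside 14.1% and 9.13%. TMCO1, part of a multipass translocon, rose by 1.17 (SE 0.25, adjusted p = 0.0275, edgeR). TRAM1, which helps nascent chains enter the membrane, rose by 1.13 (SE 0.27, adjusted p = 0.0357), and SSR2, a subunit of the translocon-associated TRAP complex, rose by 1.10 (SE 0.27, adjusted p = 0.0408). The fourth, SEC61A2, a less common form of the channel subunit, rose by 1.45 (SE 0.37, adjusted p = 0.0449). It was not called when WT replicate 2 (1.28, adjusted p = 0.0635), d27 replicate 1 (1.34, adjusted p = 0.310) or d27 replicate 2 (1.58, adjusted p = 0.0947) was left out, nor with the offset for exon length and GC content (1.18, adjusted p = 0.0548). The main channel gene SEC61A1 had 234 and 296 TMM CPM in WT and 211 and 222 in d27 and did not pass the test (adjusted p = 0.446, edgeR); it and SEC61A2 are named here outside the rule for named genes. Without WT replicate 2 none of TMCO1 (1.13, adjusted p = 0.0559), TRAM1 (0.94, 0.0867) and SSR2 (1.03, 0.0843) was called. TMCO1 and TRAM1 were also lost without d27 replicate 1 (adjusted p = 0.100 and 0.106) and SSR2 without d27 replicate 2 (adjusted p = 0.136). The offset for exon length and GC content took TRAM1 to 0.67 (adjusted p = 0.0682). The lowest adjusted p over the alternatives was 0.000471 for TMCO1, 0.00258 for TRAM1, 0.00183 for SSR2 and 0.00354 for SEC61A2.

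Signal peptidase and oligosaccharyltransferase act on the chain once it is in the lumen. None of these 18 genes passed edgeR's test in either direction, and their median log2 fold change was 0.09. At an unadjusted p under 0.05, 3 were lower and 0 higher, beside 13.6% and 17.0% of all genes. DESeq2 called 1 lower, beside 9.13%. RPN2, an oligosaccharyltransferase subunit, had the lowest p of the list, with 257 and 267 TMM CPM in WT and 155 and 179 in d27, and its log2 fold change of -0.65 (SE 0.23) did not pass (adjusted p = 0.105, edgeR). It passed with the offset for exon length and GC content (-0.91, adjusted p = 0.0239) and with the replicate number as a block (-0.65, adjusted p = 0.0440), and its adjusted p ranged from 0.0239 to 0.556 over the alternatives.

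SRP-independent routes into the membrane, the guided entry of tail-anchored proteins and the EMC insertase, made up a list of 18 genes. Of these 2 rose (11.1%), none fell and 16 did not pass, with a median log2 fold change of 0.77, the highest of the lists. Over all genes 8.0% rose and 3.7% fell. At an unadjusted p under 0.05 the count was 9 higher and 0 lower, beside 17.0% and 13.6% of all genes. DESeq2 called 5 and 0, beside 14.1% and 9.13%. SGTA, a chaperone that receives tail-anchored proteins, had 137 and 123 TMM CPM in WT and 368 and 346 in d27 and rose by 1.46 (SE 0.24, adjusted p = 0.0139, edgeR). EMC10, a subunit of the EMC, had 51.2 and 57.3 TMM CPM in WT and 123 and 138 in d27 and rose by 1.27 (SE 0.23, adjusted p = 0.0188, edgeR). Both calls held in all 12 alternatives.

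The list of factors that bind the nascent chain beside SRP, or mature 7SL RNA, had 5 genes. Of these 1 rose, beside 8.0% of all genes. BTF3L4, related to the BTF3 subunit of the nascent polypeptide-associated complex, rose by 1.36 (SE 0.33, adjusted p = 0.0384, edgeR). It was not called without WT replicate 2 (1.10, adjusted p = 0.0685) or d27 replicate 1 (1.14, adjusted p = 0.184), and the lowest adjusted p over the alternatives was 0.000716. No gene of the list was lower at an unadjusted p under 0.05 or by DESeq2.

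RNA polymerase III makes 7SL RNA, and of the 21 genes for its subunits and factors 1 rose, 3 fell and 17 did not pass, with a median log2 fold change of -0.06. Over all genes 8.0% rose and 3.7% fell. At an unadjusted p under 0.05 the count was 4 higher and 7 lower, beside 17.0% and 13.6% of all genes. DESeq2 called 2 and 4, beside 14.1% and 9.13%. GTF3C1, the largest subunit of the factor TFIIIC, had 309.9 and 566 TMM CPM in WT and 127 and 168 in d27 and fell by 1.57 (SE 0.34, adjusted p = 0.0293, edgeR). POLR3A, the largest subunit of the polymerase, fell by 0.96 (SE 0.23, adjusted p = 0.0386), while POLR3F, a smaller subunit, rose by 1.65 (SE 0.37, adjusted p = 0.0323). GTF3C2, also of TFIIIC, fell by 1.02 (SE 0.25, adjusted p = 0.0394), and is named outside the rule for named genes. It was not called when WT replicate 2 (-0.83), d27 replicate 1 (-0.93) or d27 replicate 2 (-1.05) was left out, with adjusted p = 0.105, 0.200 and 0.0764. GTF3C1 was not called without WT replicate 2 (-1.05, adjusted p = 0.0527) or d27 replicate 1 (-1.36, adjusted p = 0.0609), nor POLR3F without d27 replicate 1 (1.58, adjusted p = 0.0916). POLR3A lost its call without WT replicate 2, d27 replicate 1 or d27 replicate 2 (adjusted p = 0.114, 0.206 and 0.0785). The lowest adjusted p over the alternatives was 3.44e-05 for GTF3C1, 0.000146 for POLR3F, 0.00647 for POLR3A and 0.00739 for GTF3C2.

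The last list held other small RNAs made by RNA polymerase III. Of 18 listed, 17 were matched by symbol, 13 had a count and 11 were tested. None passed edgeR's test, and their median log2 fold change was -0.03. At an unadjusted p under 0.05, 2 were lower and 0 higher, beside 13.6% and 17.0% of all genes. DESeq2 called 1 lower, beside 9.13%. RNY1, a Y RNA of Ro particles, had 44.2 and 27.5 TMM CPM in WT and 6.53 and 20.1 in d27, and its log2 fold change of -1.44 (SE 0.52) did not pass (adjusted p = 0.106, edgeR). It passed without d27 replicate 2 (-2.42, adjusted p = 0.000708), and its adjusted p ranged from 0.000708 to 0.42 over the alternatives. Whether RN7SL1 differed from these RNAs was not tested.

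**Figure D5:**
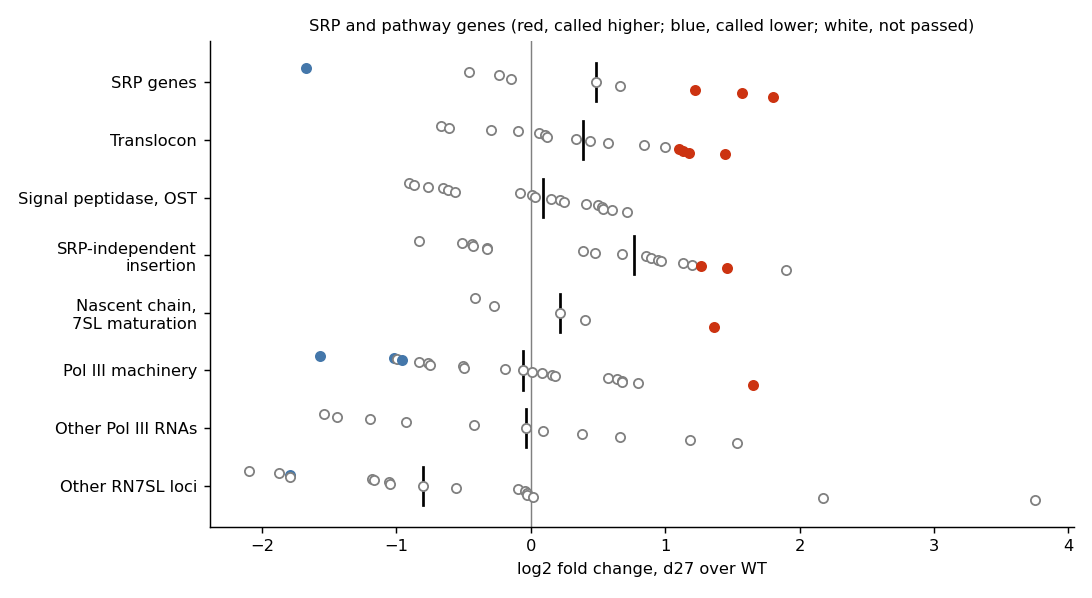
Log2 fold change of d27 over WT for each tested gene (1 circle per gene, red where called higher, blue where called lower, white where not passed) of the SRP genes, the pathway lists and the other RN7SL loci. Vertical bars are list medians, from -0.80 for the other RN7SL loci to 0.77 for SRP-independent insertion.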

How the data were processed

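RNA from anti-V5 precipitates of SK-N-AS cells was cleared of ribosomal RNA before a kit that marks strand was used for the libraries, per the labels' protocols. The deposited values are raw counts of reads per gene, 1 table per library, which the authors made with HTSeq on GRCh38, per the submitters' processing notes; these also name DESeq2. Which aligner, annotation release, strand setting and versions were used is not given in the sources used here. HTSeq's summary entries (47.6% and 47.3% of the WT tables, 25.9% and 36.8% of the d27 tables) entered neither library sizes nor tests. Of the 60719 genes, 58488 had an entry in GENCODE release 29 after version numbers were removed, which gave positions and exon lengths.

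The members and lists were chosen with earlier results of these data known. Counts were tested with edgeR 4.0.16 in R 4.3.3: TMM, filterByExpr (minimum count 10, minimum total 15), glmQLFit (robust) and glmQLFTest on group alone, with Benjamini-Hochberg adjustment over all 14909 genes tested. Each SE was computed as the absolute log2 fold change over the root of the F statistic. The script was tested on simulated data. CPM in the text is scaled by TMM, except the limits for a count of 0. Alternatives were DESeq2 1.42.0, other scalings and filters, an offset for exon length and GC, the replicate number as a block, and leaving out each library. Besides the 10 members, KIF5A and RPS29, the genes named were those sharing exon bases with a member, up to 3 called genes of each list by lowest p (the lowest p where none was called), the 3 genes nearest RN7SL1, and the 3 other RN7SL loci with the highest mean count. The sequences of the 7SL genes are not reported here.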

Additional observations from a re-analysis of the deposited data

How the results depend on the processing

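SRP9, SRPRA, SGTA, EMC10, RN7SL4P, LRP1B and SYNE2 (the last pair chosen for likeness to RN7SL1) kept their direction and call in all 12 alternatives. Over the named genes, 366 values kept direction and side of the threshold, 18 passed it newly, 33 no longer passed and 3 reversed: SRP54 (0.37 without WT replicate 1 and 0.09 without d27 replicate 2, with -0.48 to 0.37 over the libraries left out) and KIF5A (0.40 without WT replicate 2, with -0.57 to 0.40). Genes called higher numbered 1192 in the main test, 1888 without a filter and 697 to 2715 with a library left out. Genes called lower numbered 551, against 1112 by DESeq2, 285 with library totals, 974 without a filter, 959 with at least 50 counts in 2 libraries, 995 with the length and GC offset and 71 to 2136 with a library left out. The offset gave 56.6% of calls higher, beside 68.4%, and leaving out WT replicate 1 moved the median of all genes to 0.10. SRP genes called lower numbered 1, or 0 with the offset, and 0 to 1 with a library left out, and those higher 3, or 2 to 3. Pathway genes called higher numbered 8, against 14 by DESeq2, 3 with library totals, 15 without a filter and 3 to 21 with a library left out. Pathway genes called lower numbered 3, against 6, 1 and 5 in the same order, 8 with the offset and 0 to 8 with a library left out. The cause was not tested. The difference in SRP RNA share was -0.097 over all entries and -0.260 to -0.170 with a library left out, and that in the log2 ratio -2.27 to -1.49.

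The replicate numbers are not stated to mark a shared culture, and with 2 pairs the deviations of same-numbered libraries correlated at r = 0.0962 across 14909 genes. With the replicate number as a block, 2137 genes were called higher and 1438 lower, 3 SRP genes higher and 1 lower, and 18 pathway genes higher and 7 lower. TMM assumes that most genes do not differ. Counts at 7SL loci are limited by reads set aside, and with 2 libraries per group the spread rests mostly on other genes.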
